A study of Mus musculus with 6 samples.

Results

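The matrix genes described here were 60 of the 8251 genes that the array annotates singly, measured by 86 of its 12488 probe sets. They were picked by gene symbol, from probe sets annotated to a single gene, and earlier results of these data were known when the set was chosen. The families are collagens, laminin chains, nidogens, fibulins, fibrillins, lysyl oxidases, thrombospondins and Sparc family proteins. Elastin, fibronectin, decorin, biglycan, lumican, tenascin C, periostin, fibromodulin and perlecan were added by name. Thoracic mammary glands were taken at 16 weeks of age from virgin F1 CF-1/FVB mice. One group was wild type, and the other carried a transgene that overexpresses LH, luteinizing hormone of the pituitary, which drives the ovary to make sex steroids, with 3 arrays per group and RNA of 3 mice pooled for each array. All mice shared the F1 background, age and virgin state, and the promoter that drives the transgene is not given in the sources used here. The question of the design was which genes differ in the gland when LH is overexpressed.

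The extracellular matrix of the mammary gland has 2 main forms. A basement membrane of collagen IV, laminins, nidogens and perlecan underlies the epithelium and also surrounds each fat cell and blood vessel. The connective tissue between them holds fibrillar collagens, which assemble into ropes whose diameter is set in part by collagen V and by small leucine-rich proteoglycans, together with collagen VI filaments, elastic fibres and matricellular proteins that regulate cells rather than bear load. Fibroblasts make most of the fibrillar matrix, while epithelial, endothelial, fat and muscle cells each contribute basement membrane chains. In bulk tissue fewer cells of a type and less RNA per cell cannot be told apart.

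The values are MAS5 signals, a linear brightness per probe set, and a difference is the LH transgenic mean of log2(signal + 80.02) less that of wild type. Testing with limma was limited to probe sets averaging at least 336 over the 6 arrays, p-values were adjusted by Benjamini-Hochberg over all 7453 tested probe sets, and a probe set is said to fall or rise where the adjusted p was under 0.05. Of the 86 matrix probe sets 64 were tested (49 genes), of which 32 fell and 6 rose. Over all 7453 tested probe sets 10.8% fell and 10.5% rose. The median log2 difference was -0.65 over the 64 and 0.02 over all. By the brightest probe set of each gene, 23 genes fell, 5 rose and 21 did not pass the test. Of the 64 tested matrix probe sets, 38 had LH transgenic signals wholly below wild type and 6 wholly above. Over all tested probe sets 19.8% lay wholly below and 20.6% wholly above wild type. All of the 32 and of the 6 were among those without overlap, which selection by the test makes likely. Of the tested members, 2 had a mean under 336 in 1 group, and 1 of these fell. Without wild type pool 3, 20 matrix probe sets fell and 4 rose. Calls over all 7453 tested probe sets dropped as well, from 805 to 507 that fell and from 781 to 434 that rose.

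**Figure D1:**
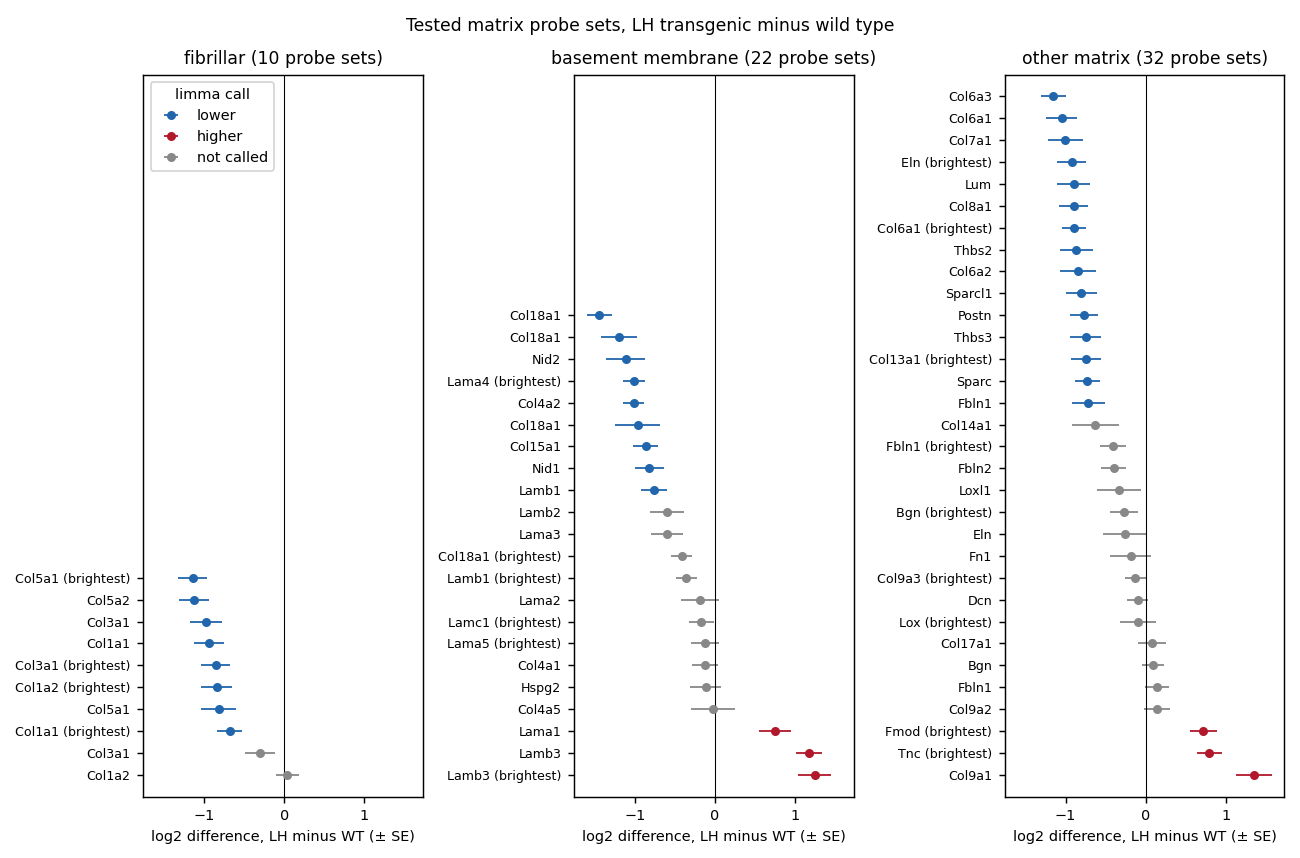
Log2 differences (LH transgenic minus wild type, x axis, bars ± SE) of the 64 tested matrix probe sets in 3 panels by class, coloured by the limma call. Of the fibrillar collagen probe sets 8 of 10 fell and none rose, whereas the basement membrane and other matrix panels hold 3 probe sets each that rose.

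Luminal and fat cell markers showed the labelled tissue, with Krt18 signals of 13941, 11966 and 13716 on the wild type and 14928, 14593 and 11428 on the LH transgenic arrays. Median signals were 541 to 583, which the common scaling of MAS5 keeps close. The bacterial hybridisation controls read 3359 to 4433 on the wild type and 5219 to 7147 on the LH transgenic arrays. One scaling choice matters for the size of every difference below and for many of the calls. MAS5 sets each array to a common mean, and when arrays were instead divided by their 9 bacterial hybridisation controls, the median of all tested probe sets moved from 0.02 to -0.62. On that scale 53 matrix probe sets fell, among them all 32 that fell on the MAS5 scale, and only Col9a1 rose. Over all 7453 tested probe sets 3859 fell and 140 rose. The Lamb3, Lama1, Tnc and Fmod differences kept their sign there but did not pass the test.

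Every fibrillar collagen gene that was tested fell. Of 10 tested probe sets for Col1a1, Col1a2, Col3a1, Col5a1 and Col5a2, 8 fell and none rose, with a median log2 difference of -0.85. Without wild type pool 3, 5 fell. Collagen I, made of Col1a1 and Col1a2 chains, is the main load-bearing collagen of connective tissue. The brighter Col1a1 probe set read 27145, 38674 and 33677 on the wild type and 18466, 19399 and 23925 on the LH transgenic arrays (log2 -0.68, SE 0.16, adjusted p 0.014). The second read 9741, 12819 and 10978 against 5527, 7467 and 4603 (log2 -0.94, adjusted p 0.00693). On each, the highest LH transgenic array lay below the lowest wild type array, and the call of the brighter was lost when wild type pool 3 (-0.66) or LH transgenic pool 1 (-0.61) was left out. Col1a2 read 11807, 18668 and 18949.8 in wild type and 9712, 7750.3 and 9489 in transgenic glands (log2 -0.84, SE 0.19, adjusted p 0.0129). Wild type pool 1 was the lowest of its group and still above each LH transgenic pool, and the call was lost without wild type pool 3 (-0.73). A dimmer Col1a2 probe set did not differ detectably, with means of 2148 and 2215 (log2 0.04, adjusted p 0.887), and on the bacterial control scale it was lower by the test (-0.63).

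Collagen III forms thin fibrils beside collagen I in soft tissue. Its gene Col3a1 read 21556, 29494 and 27008 on the wild type arrays against 14980.4, 11128 and 17208 on the LH transgenic arrays (log2 -0.86, SE 0.18, adjusted p 0.00937). A second Col3a1 probe set went from 3026, 3748 and 3713 to 2209.7, 1269 and 1855 (log2 -0.97, adjusted p 0.00832). LH transgenic pool 2 was the lowest on both, and both lost their call when the level of skeletal muscle markers was added to the model (adjusted p 0.136 and 0.0714). The third Col3a1 probe set had overlapping groups, with means of 2568 and 2120.1 (log2 -0.30, adjusted p 0.292).

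Collagen V nucleates fibrils and limits their diameter, and by the brightest probe sets its genes had the most negative differences among the fibrillar collagens, an order that was not tested. Col5a1 read 5744, 5275 and 8154 in wild type and 3232, 2610.0 and 2603 in transgenic glands, 44.0% of the wild type mean (log2 -1.14, SE 0.18, adjusted p 0.00257). The dimmer Col5a1 probe set read 1709.5, 1899 and 2552 against 1499.6, 865 and 1059 (log2 -0.82, adjusted p 0.025). Wild type pool 3 was the highest on both and the groups did not overlap, but the dimmer lost its call without that pool (-0.66) or without LH transgenic pool 2 (-0.65) or 3 (-0.79). Col5a2 went from 9917, 13345 and 14905 to 6627, 4600.2 and 6035, 45.2% of wild type (log2 -1.13, SE 0.19, adjusted p 0.00315). The fibrillar collagens of cartilage were dim and untested. Col2a1 lay between 97.4 and 195 on all arrays, Col11a2 between 55.2 and 291, and Col11a1 between 204 and 581 in wild type against 117 to 261 in LH transgenic glands.

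Collagen VI, a beaded filament that links cells to the fibres, is built from Col6a1, Col6a2 and Col6a3 chains, and all of its 4 probe sets fell. Col6a3 read 11981, 12774 and 15087 in wild type and 6678, 4795 and 6370.2 in transgenic glands (log2 -1.16, SE 0.16, adjusted p 0.00134). Col6a1 read 10417, 11132 and 12737 against 6561, 4962 and 6922 (log2 -0.90, adjusted p 0.00383), and its dimmer probe set 1786, 1912 and 2845 against 1082, 860.5 and 1041 (log2 -1.05, adjusted p 0.00492). The groups were apart on each. Col6a2 read 7068, 8378 and 10850.3 against 6693, 4336 and 3770.3 (log2 -0.84, SE 0.22, adjusted p 0.0262), with wild type pool 1 and LH transgenic pool 1 close together. It lost its call in 6 of 17 other settings, among them leaving out either of wild type pools 2 and 3 or LH transgenic pools 2 and 3.

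**Figure D2:**
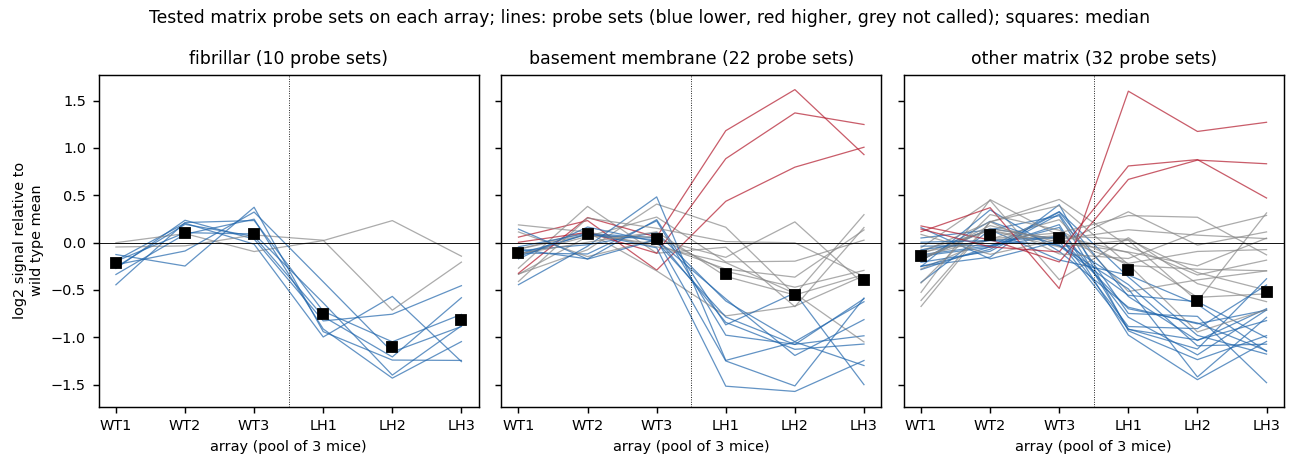
Log2 signal of each tested matrix probe set relative to its wild type mean (y axis) on the 6 arrays (x axis), with squares for the median and lines that join the values of 1 probe set. The fibrillar median was lowest on the LH2 array, and all 3 classes had their wild type median lowest on WT1.

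The arrays of a group differed in a regular way. Among the 32 probe sets that fell, wild type pool 1 was the lowest wild type array for 24, and LH transgenic pool 2 was the lowest transgenic array for 22. LH transgenic pool 1 was the highest transgenic array for 20. Skeletal muscle lies next to the thoracic gland, and its markers were far lower in LH transgenic pools 1 and 2 and closer to wild type in pool 3. Of 11 listed muscle genes 5 fell and none rose, and their summed signal was 101545 to 116127 in wild type glands and 21569, 25094 and 91708 in LH transgenic pools 1, 2 and 3. When the muscle level was added to the model, leaving 3 residual degrees of freedom, 18 matrix probe sets fell, 3 of them fibrillar. Over all 7453 tested probe sets 463 fell and 385 rose in that fit, against 805 and 781 without the covariate. Of the 32 matrix probe sets that fell without the covariate, 15 lost their call. These were the brightest probe sets of Col1a1 (-0.44), Col1a2 (-0.79), Col3a1 (-0.61) and Col6a1 (-0.76), the dimmer ones of Col3a1 (-0.95) and Col5a1 (-0.98), and those of Eln, Lamb1, Lum, Nid1 (-0.61), Nid2 (-0.63), Postn (-0.76), Sparcl1 (-0.42), Thbs3 and Col13a1 (-0.46). Of the 6 that rose, the brighter Lamb3 probe set (0.99) and Fmod (0.48) lost theirs. The median was -0.87 against -0.85 for fibrillar, -0.39 against -0.51 for basement membrane and -0.55 against -0.52 for other matrix probe sets. The part of muscle in the matrix results was not tested beyond this fit.

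Most basement membrane genes that changed fell, and Lamb3 and Lama1 rose. Of 22 tested probe sets, 9 fell (40.9%) and 3 rose (13.6%, against 10.5% of all tested probe sets), with a median log2 difference of -0.51. Of the 3 that rose 2 measure Lamb3. Collagen IV forms the sheet of the basement membrane, and most of it is made of Col4a1 and Col4a2 chains in a fixed ratio. Col4a2 read 15891, 15784 and 20136 in wild type and 8674, 8105 and 8635 in transgenic glands, 49.1% of the wild type mean (log2 -1.01, SE 0.13, adjusted p 0.00107). Col4a1 read 12771, 16872 and 19462 against 13989, 14067 and 16423, with overlapping groups (log2 -0.12, SE 0.16, adjusted p 0.629). The Col4a2 call held under each of 17 other settings, and Col4a1 passed the test only on the bacterial control scale (-0.81). Col4a5, a chain of other collagen IV forms, was 536 ± 165 in wild type and 528 ± 173 in transgenic glands (SD, n = 3; log2 -0.03, adjusted p 0.953). Col4a3 and Col4a4, chains of kidney and lung, had signals of at most 79.2 and were not tested.

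Col4a1 and Col4a2 lie head to head on chromosome 8 of the GRCm38.p6 assembly, with RefSeq starts 21 bases apart on opposite strands, so that each gene begins just inside the other. The 250 bases before each start are shown because the 2 genes gave different results. Capitals mark the letters CCAAT or GGGCGG, on either strand. Col4a1 comes from chr8:11312827-11313076 on the minus strand and Col4a2 from chr8:11312555-11312804 on the plus strand, both from RefSeq, and the stretches share no base.
Col4a1: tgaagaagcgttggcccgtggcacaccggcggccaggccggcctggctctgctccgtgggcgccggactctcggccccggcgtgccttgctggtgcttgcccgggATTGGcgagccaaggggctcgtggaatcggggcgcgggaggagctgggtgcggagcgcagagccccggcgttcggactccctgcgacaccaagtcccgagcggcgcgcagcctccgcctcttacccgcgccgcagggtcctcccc
Col4a2: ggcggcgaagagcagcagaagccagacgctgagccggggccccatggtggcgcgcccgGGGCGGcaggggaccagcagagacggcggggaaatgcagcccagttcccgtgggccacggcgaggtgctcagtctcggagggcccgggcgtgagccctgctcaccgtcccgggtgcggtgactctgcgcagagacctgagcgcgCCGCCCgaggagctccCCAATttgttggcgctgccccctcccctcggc
The Col4a1 stretch holds 1 of these matches and the Col4a2 stretch holds 3. A match is a run of letters and was not tested as a binding site.

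Within each array the log2 signal of Col4a1 minus that of Col4a2, set to a wild type mean of 0, was -0.23, 0.18 and 0.04 in wild type pools and 0.77, 0.88 and 1.01 in LH transgenic pools. The groups did not overlap, and the difference was 0.89 (two-sided exact permutation p = 0.1, the smallest that 3 arrays against 3 allow, adjusted p 0.133 over 4 pairs). These 4 were the pairs of matrix genes that are direct neighbours among protein-coding genes in RefSeq and were both tested. For the neighbours Dcn and Lum the difference was 0.80 (exact permutation p = 0.1, adjusted p 0.133) and for Col3a1 and Col5a2 0.27 (exact permutation p = 0.1, adjusted p 0.133). For Col6a2 and Col6a1, which fell alike, it was 0.06 (exact permutation p = 0.9, adjusted p 0.9).

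**Figure D3:**
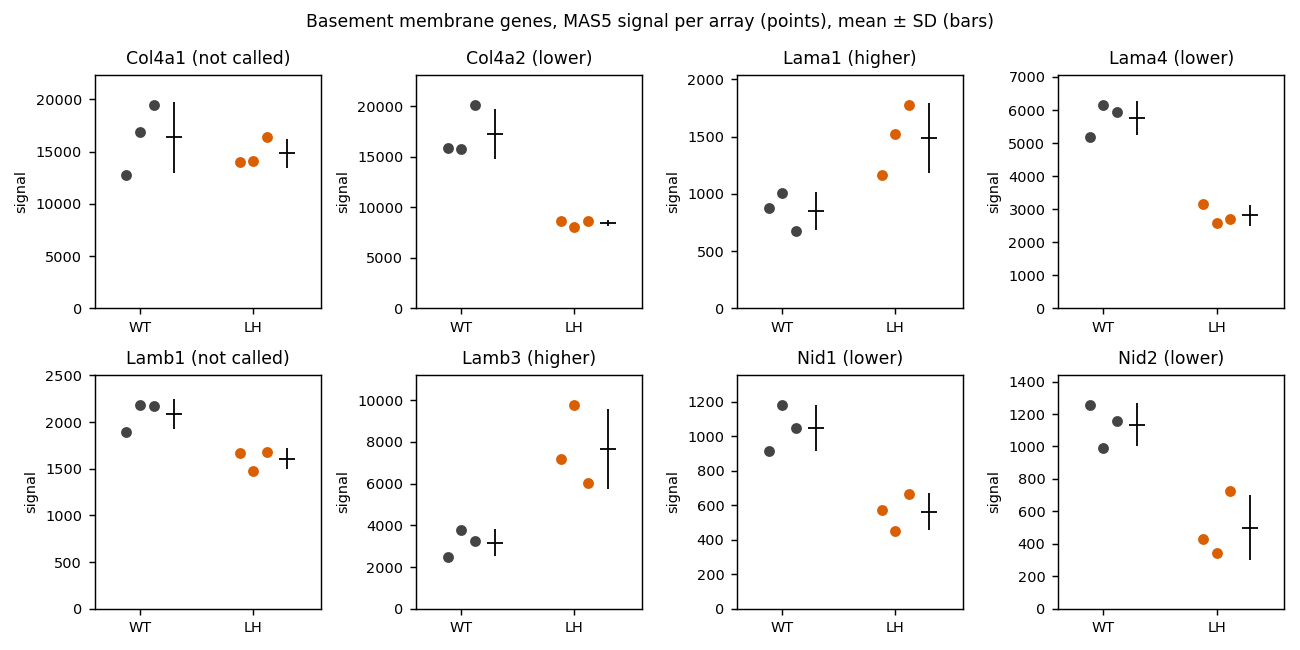
MAS5 signal (y axis, from 0) of 8 basement membrane genes, by the brightest probe set of each, in wild type (WT) and LH transgenic (LH) glands, with a point for each array and bars for mean ± SD. Col4a2, Lama4, Nid1 and Nid2 lie lower and Lama1 and Lamb3 higher in LH transgenic glands without overlap, and the Col4a1 groups overlap.

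Laminins are trimers of an alpha, a beta and a gamma chain that anchor cells to the basement membrane, and their chains did not move together. Lamb3, a beta chain of the laminin beneath epithelial hemidesmosomes, read 2484, 3776 and 3261 in wild type and 7201, 9754 and 6030.5 in transgenic glands, a 2.41-fold ratio of means (log2 1.24, SE 0.20, adjusted p 0.00316). Its second probe set read 1056, 1142 and 969 against 2016, 2849.5 and 2611 (log2 1.17, adjusted p 0.00141). All LH transgenic arrays lay above all wild type arrays on both, and the brighter lost its call with the muscle covariate (0.99). Lama3, the alpha chain that partners Lamb3, had lower values in LH transgenic glands, 900.3, 850.0 and 620.0 against 424, 460.4 and 596, and did not pass the test (log2 -0.60, adjusted p 0.0606). It was called without LH transgenic pool 3 (-0.72), with array weights (-0.70) and on the bacterial control scale (-1.21). Lama1, an alpha chain best known from embryonic basement membranes, rose from 880.3, 1004 and 674 to 1168, 1523 and 1774 (log2 0.75, SE 0.20, adjusted p 0.0245). That call was lost under 6 of 17 other settings, including 4 of the 6 that leave out an array (wild type pool 1 or 3, LH transgenic pool 2 or 3).

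Lama4, the alpha chain of laminins around vessels, fat cells and muscle, fell from 5189, 6149.8 and 5954 to 3171, 2588 and 2694, 48.9% of the wild type mean (log2 -1.01, SE 0.14, adjusted p 0.00131). Its highest transgenic array lay well below its lowest wild type array, and the call held under each of 17 other settings. Lamb1, the common beta chain, gave 1522, 1593 and 1750.2 in wild type and 1028, 743 and 1022 in transgenic glands on the probe set that fell (log2 -0.76, adjusted p 0.0101). On its brighter probe set the groups were also apart, but the difference of -0.36 did not pass the test (adjusted p 0.0863). Lamb2, another beta chain, had means of 1289 and 848 (log2 -0.60, adjusted p 0.0704) and passed only on the bacterial control scale, with the muscle covariate or without LH transgenic pool 1 (-0.79). The remaining chains had overlapping groups. Their differences were -0.19 for Lama2, the alpha chain of muscle, -0.13 for Lama5, the main alpha chain of adult epithelia, and -0.17 for Lamc1, the common gamma chain (adjusted p 0.621, 0.665 and 0.488).

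Nidogens bridge laminin to collagen IV, and both genes fell, though neither passed the test with the muscle covariate (adjusted p 0.144 for Nid1 and 0.158 for Nid2). Nid1 read 917, 1179 and 1049 against 572, 452 and 665 (log2 -0.82, SE 0.18, adjusted p 0.0119) and Nid2 1253, 990.3 and 1155 against 428, 343 and 725 (log2 -1.12, SE 0.24, adjusted p 0.0103). Each transgenic pool was below each wild type pool. Perlecan, the heparan sulfate proteoglycan encoded by Hspg2, had overlapping groups, 2505 ± 597 and 2274 ± 326 (SD, n = 3; log2 -0.12, adjusted p 0.718). Col15a1, a basement membrane collagen abundant around vessels, fat and muscle, fell from 9659.9, 11155 and 10712 to 6924, 4546 and 5934 (log2 -0.87, SE 0.16, adjusted p 0.00543).

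Col18a1, the collagen that carries endostatin at its end, had 5 probe sets, of which 4 were tested and 3 fell. The largest decrease of any matrix probe set was here, from 1489.8, 1654 and 1478 to 486, 464 and 603, 33.6% of wild type (log2 -1.44, SE 0.15, adjusted p 0.000496). A second read 1014, 1369.6 and 2001 against 548, 639 and 525 (log2 -1.20, adjusted p 0.00592), and another 502, 462 and 643 against 255, 343 and 136 (log2 -0.97, adjusted p 0.0345). The dimmest of these lost its call in 6 of 16 other settings, among them leaving out any array but LH transgenic pool 2. The brightest Col18a1 probe set had groups apart, 2377, 2595 and 2806 against 2002, 1738 and 2032, and just missed the threshold (log2 -0.42, SE 0.13, adjusted p 0.0538), and was called in 5 of 17 other settings (without LH transgenic pool 3, with median scaling, the stricter filter or array weights, and on the bacterial control scale). The size of the Col18a1 decrease therefore depended on the probe set.

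Markers of several cell types also differed between the groups, some lower and some higher in LH transgenic glands. The shares over all tested probe sets were 10.8% lower and 10.5% higher. Endothelial markers fell in 8 of 11 genes and none rose, with a summed signal of 33511 to 39896 in wild type and 15720 to 18545 in LH transgenic glands. Fat cell markers fell in 8 of 9 genes and none rose, summing to 152538 to 174514 against 75068 to 82169. Of 9 fibroblast genes on the array 7 were tested, 4 fell (Twist1, Fap, Twist2 and Pdgfrb) and none rose. Their summed signal, to which bright genes add most, was 14940.0 to 20624 against 11509 to 15523, so the sums overlapped. The mean log2 signal of the tested genes, each relative to its own mean, did not overlap. It was 0.14 to 0.49 in wild type and -0.52 to -0.15 in LH transgenic glands, and all 7 differences were negative. Pdgfra, a general fibroblast receptor, had a difference of -0.03 (adjusted p 0.938). Luminal epithelial markers rose in 4 of 8 genes and none fell (108431 to 167684 against 243421 to 285364). Of 6 tested basal and myoepithelial genes only Acta2 rose and none fell. The summed signal of that list was 23353 to 29866 against 31955 to 33627. Its mean log2 signal per gene overlapped, at -0.243 to 0.157 in wild type and 0.055 to 0.083 in LH transgenic glands. The brightest Krt17 probe set was not called, while 2 dimmer ones were called in opposite directions (0.93 and -1.37). Macrophage markers rose in 4 of 8 genes (28204 to 44802 against 55953 to 65738). Krt5 and Krt14, defining keratins of basal cells, were at most 161 on every array. No marker was at 0, and the part of these cells in the matrix results was not tested.

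The remaining matrix genes had 32 tested probe sets, of which 15 fell and 3 rose, with a median log2 difference of -0.52. These are 46.9% and 9.38%, against 10.8% and 10.5% of all tested probe sets, so the share that rose was near that over all. Without wild type pool 3, 7 fell and 2 rose. The 3 that rose belonged to unrelated families. Col9a1, a chain of the fibril-associated collagen IX known from cartilage and the eye, had the largest increase of any matrix probe set, from 1033, 1246 and 654 in wild type to 3032, 2238 and 2398 in LH transgenic glands. This was a 2.61-fold ratio of means (log2 1.35, SE 0.22, adjusted p 0.00316), and the call held under each of 17 other settings, the bacterial control scale included (0.70). Its partner chains did not follow. Col9a2 had a difference of 0.14 and Col9a3 of -0.13, with overlapping groups (adjusted p 0.579 and 0.529).

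Tnc encodes tenascin C, a matricellular glycoprotein made where tissue is remodelled. It rose from 825, 737 and 616 to 1193, 1386 and 1347 (log2 0.79, SE 0.16, adjusted p 0.00753), and each transgenic array exceeded each wild type array. A second Tnc probe set was too dim for the test and read 129, 128 and 119 against 384, 416 and 206, also without overlap. Fmod encodes fibromodulin, which binds collagen I and affects fibril thickness. It rose from 769.8, 666 and 639 to 1269, 1333 and 987 (log2 0.72, SE 0.17, adjusted p 0.014), a call lost under 4 of 17 other settings, among them leaving out wild type pool 3 and leaving out LH transgenic pool 1.

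The other proteoglycans of the same leucine-rich family differed from Fmod and from each other. Lum encodes lumican, a partner of fibrillar collagen, and fell from 11503, 11647 and 11263 to 8153, 4240.2 and 6602 (log2 -0.90, SE 0.21, adjusted p 0.0141). The wild type arrays agreed closely, while the transgenic arrays were spread widely below them. Dcn, the gene of decorin and the neighbour of Lum, read 25119, 32282 and 28534 in wild type and 26604, 24030.2 and 29453 in transgenic glands. The Dcn groups overlapped (log2 -0.10, SE 0.13, adjusted p 0.639). Bgn, which encodes biglycan, had 8950.4, 14822 and 13207 against 10184, 9912 and 9796 (log2 -0.27, adjusted p 0.307), and wild type pool 1 lay below the transgenic values. Without that pool the Bgn difference passed the test (-0.49).

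**Figure D4:**
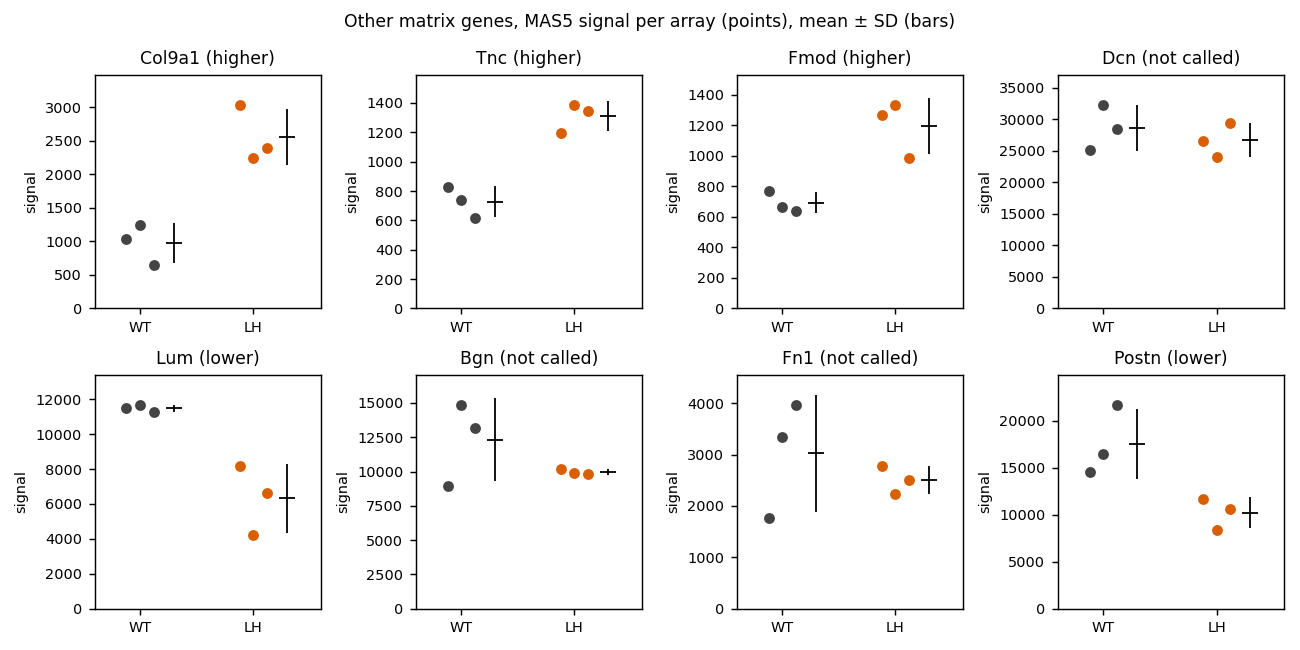
MAS5 signal (y axis, from 0) of 8 other matrix genes, by the brightest probe set of each, in wild type (WT) and LH transgenic (LH) glands, with a point for each array and bars for mean ± SD. Col9a1, Tnc and Fmod lie higher and Lum and Postn lower in LH transgenic glands without overlap, while the groups of Dcn, Bgn and Fn1 overlap.

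Matricellular genes mostly fell, apart from Tnc. Sparc, a collagen-binding protein that aids fibril assembly, fell from 19748, 26367 and 22003 to 15304, 14598 and 11201 (log2 -0.73, SE 0.16, adjusted p 0.0108). Postn, which encodes periostin, read 14501, 16456 and 21646 against 11628, 8397 and 10627 (log2 -0.77, adjusted p 0.0137), and the Sparc relative Sparcl1 5432, 4306 and 4907 against 2544, 2187 and 3711 (log2 -0.81, adjusted p 0.0164). None of these overlapped. The Postn call was lost without wild type pool 3 and the Sparcl1 call without wild type pool 1 or 3 and without LH transgenic pool 1, and both were lost with the muscle covariate (-0.76 for Postn and -0.42 for Sparcl1). The thrombospondin genes, whose proteins bind matrix and cell receptors, fell as well. Thbs2, an inhibitor of vessel growth, went from 1037, 1325 and 1214 to 852, 515 and 522 (log2 -0.87, adjusted p 0.0155) and Thbs3 from 734, 1153 and 830.2 to 525, 456 and 512 (log2 -0.75, adjusted p 0.022). Wild type pool 2 was the highest for both. Both lost their calls without wild type pool 2 or 3, and Thbs3 also without LH transgenic pool 1 or 2. Fn1, fibronectin, varied widely in wild type glands (1764, 3343 and 3956) and overlapped with 2786, 2242 and 2508 in LH transgenic glands (log2 -0.19, SE 0.26, adjusted p 0.652).

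Elastic fibres consist of elastin on a scaffold of fibrillins and fibulins, and lysyl oxidases cross-link elastin and collagen. Eln fell from 7825, 11533 and 12797 to 5522, 5104 and 5893 (log2 -0.92, SE 0.18, adjusted p 0.00675), while a dim second probe set had a difference of -0.26 (adjusted p 0.546). The Eln wild type pools were spread and the transgenic pools close together. Fbln1 had 3 tested probe sets with differing results. That which fell read 1343, 1431 and 1131 against 1005, 795 and 540.1 (log2 -0.71, adjusted p 0.0392) and lost its call in 6 of 17 other settings, among them leaving out any array but LH transgenic pool 1, whereas the others differed by -0.41 and 0.14 (adjusted p 0.0972 and 0.563). The first of these passed without LH transgenic pool 1 (-0.56). Fbln2, with means of 6257 and 4670.0, had groups apart and an adjusted p of 0.0919 (log2 -0.40). The cross-linking enzyme genes Lox and Loxl1 had overlapping groups and differences of -0.09 and -0.34 (adjusted p 0.812 and 0.432), and neither passed the test.

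Several less abundant collagens fell. Col7a1, which forms the anchoring fibrils of epithelia, read 2150.5, 2337 and 3091 against 1454, 1421 and 844 (log2 -1.002, adjusted p 0.0118). Col8a1, a network collagen of vessels, read 759, 818 and 839 against 465, 411 and 321 (log2 -0.90, adjusted p 0.008), and the transmembrane collagen gene Col13a1 743, 747 and 805 against 377, 369.9 and 539 (log2 -0.75, adjusted p 0.0198). All were apart from wild type on each array, although Col13a1 lost its call when any of 5 arrays was left out (each but LH transgenic pool 3), and Col7a1 without wild type pool 3. Col14a1, which decorates collagen fibrils, had means of 797 and 476 (log2 -0.63, adjusted p 0.155; -0.93 and called without wild type pool 1), and Col17a1, a transmembrane collagen of hemidesmosomes, of 809.6 and 860.3 (log2 0.08, adjusted p 0.805).

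A total of 22 matrix probe sets were below the filter, and 11 genes had no tested probe set. Besides the collagen II, XI and IV genes named above these were Col10a1, Col12a1, Col19a1, Col22a1, Col26a1 and Fbn2. No untested member exceeded 581 on any array, and none had all LH transgenic arrays below wild type.

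**Figure D5:**
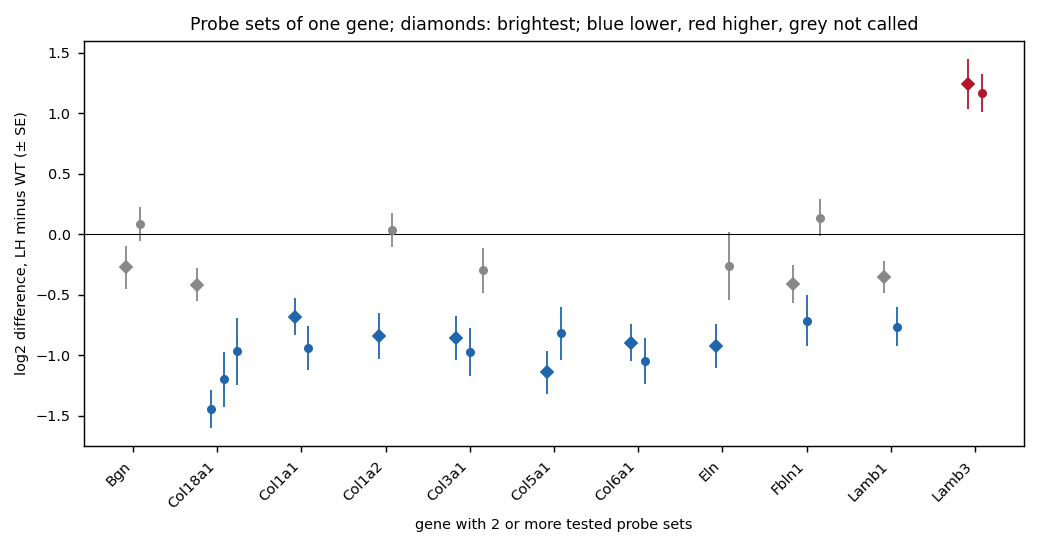
Log2 differences (LH transgenic minus wild type, y axis, bars ± SE) of the 11 matrix genes with several tested probe sets, with diamonds for the brightest probe set of each gene. All probe sets of Col1a1, Col5a1 and Col6a1 fell and both of Lamb3 rose, while Col18a1, Col1a2, Col3a1, Eln, Fbln1 and Lamb1 each hold called and uncalled probe sets.

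Probe sets of the same gene are a check within an array. Of 11 genes with several tested probe sets, 5 gave the same verdict on all of them and 6 did not, and 0 were called in both directions. Besides Col18a1, Fbln1 and Lamb1, where the brightest probe set did not pass, the disagreements were at dimmer probe sets of Col1a2, Col3a1 and Eln. Some of these sets carry a suffix (f, g, r or s) by which the manufacturer marks probes that may match related sequences or were chosen under relaxed rules.

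Promoter windows of 300 bases (250 before to 50 after a RefSeq start, GRCm38.p6) were found for 38 of the 60 genes. The letters TATAAA, on either strand, occurred in 4 of 23 windows of genes that fell (17.4%), 2 of 7 windows of genes that rose (28.6%) and 13.6% of all 32851 windows. CCAAT occurred in 9 of 23 (39.1%), 2 of 7 (28.6%) and 37.4%. GGGCGG occurred in 12 of 23 (52.2%), 2 of 7 (28.6%) and 35.7%, and in 8 of 10 windows (80.0%) of genes that were tested and not called. A window counts once per motif, matches of different motifs can overlap, and some genes have several windows. The 7 windows of genes that rose belong to 4 genes. Those with TATAAA and those with GGGCGG are 2 overlapping Tnc windows that share the same match. Col3a1, which fell, and Tnc, which rose, both hold TATAAA, and their 250 bases before the start are shown for that reason, with the matches in capitals (in Tnc also GGGCGG). Col3a1 is at chr1:45311288-45311537 on the plus strand and Tnc at chr4:64046937-64047186 on the minus strand.
Col3a1: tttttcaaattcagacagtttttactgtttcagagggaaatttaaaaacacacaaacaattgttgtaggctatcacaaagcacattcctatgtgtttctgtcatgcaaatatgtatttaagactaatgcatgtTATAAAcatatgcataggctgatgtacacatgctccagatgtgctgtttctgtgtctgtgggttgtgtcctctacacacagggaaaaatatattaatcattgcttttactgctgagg
Tnc: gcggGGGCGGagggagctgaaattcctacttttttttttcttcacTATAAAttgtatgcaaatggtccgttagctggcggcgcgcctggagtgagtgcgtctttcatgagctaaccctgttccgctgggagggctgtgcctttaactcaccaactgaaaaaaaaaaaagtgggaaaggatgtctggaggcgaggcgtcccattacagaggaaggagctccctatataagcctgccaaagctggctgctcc
The same letters thus stood before genes that moved in opposite directions.

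Genes that process collagen were partly lower. Of 13 tested genes of collagen maturation, 4 fell and 1 rose (probe set median -0.30). By probe set 29.4% fell and 5.88% rose, against 10.8% and 10.5% over all tested probe sets. Serpinh1, the collagen chaperone of the endoplasmic reticulum, fell from 12974, 14132 and 15245 to 9131, 6671 and 6826 (log2 -0.91, adjusted p 0.003). P3h3 and P4ha1, which hydroxylate collagen prolines, fell by 0.87 and 0.61 on the log2 scale, and Crtap, a partner of prolyl hydroxylase, by 0.51 (adjusted p 0.0418, 0.0405 and 0.0281). P4hb, which serves prolyl hydroxylase and also folds other secreted proteins, rose from 2648, 4749.9 and 1438 to 7974, 6539.7 and 4972 (log2 1.25, adjusted p 0.0338). Its wild type pools were widely spread.

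Among 15 tested genes of matrix receptors 2 rose and 1 fell (probe set median 0.01). By probe set 9.09% fell and 9.09% rose, close to the shares over all tested probe sets. The pair that rose encode the integrin that holds epithelial cells to the laminin containing Lamb3. Itga6 went from 2195, 2196 and 2215 to 4663, 5224 and 6464 (log2 1.26, adjusted p 0.000619) and Itgb4 from 1729, 1743 and 1639.9 to 2676, 2611 and 2546 (log2 0.59, adjusted p 0.00841). The wild type arrays of both were nearly equal and all below the transgenic arrays. Itga7, the laminin-binding integrin chain of muscle, fell from 1465, 1357 and 1341 to 595, 883 and 831 (log2 -0.80, adjusted p 0.00982). A slightly dimmer Itga7 probe set also fell (log2 -1.41, adjusted p 0.000508). Itgb1, the shared beta chain of most matrix integrins, had a difference of 0.21 (adjusted p 0.299).

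Other matrix proteins, from a list outside the symbols above, fell in 5 and rose in 1 of 18 tested genes (probe set median -0.27). By probe set 23.8% fell and 4.76% rose, against 10.8% and 10.5% over all tested probe sets. Smoc1, a Sparc-related basement membrane protein, fell from 9164, 8530.2 and 10122 to 2855, 3899 and 2891 (log2 -1.52, adjusted p 0.000377). Ltbp4, which binds latent TGF-beta and aids elastic fibre assembly, fell from 5491, 5528 and 6914 to 2627, 2168 and 2252 (log2 -1.31, adjusted p 0.000508), and Mfap2, a microfibril protein, by 0.78 (adjusted p 0.00711). Other genes of the microfibril and latent TGF-beta binding families, Mfap4, Mfap5, Ltbp2 and Ltbp3, were tested and did not pass. Npnt, which encodes the basement membrane protein nephronectin, rose from 448, 336 and 482 to 1142, 997 and 1454 (log2 1.34, adjusted p 0.00184).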

How the data were processed

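The authors deposited a table of linear MAS5 intensity values, per the submitters' processing notes. The MAS5 version is not given in the sources used here. Genes were named from probe sets with 1 annotated gene (10833 of 12488; all 86 members were found by gene ID in RefSeq GRCm38.p6). The log2(signal + 80.02) values, with the 20th percentile of all values as pseudocount, were fitted with limma 3.58.1 (R 4.3.3, lmFit and eBayes with a trend, two-sided) without covariates. The filter of 336 is the 40th percentile of the means, and 66 control probe sets were left out. The pools held RNA of different mice per the labels, which name no batch. The fit was tested on simulated data. Members, classes and lists were chosen with earlier results of these data known. Values on every array are given for each member called and for the brightest of each class. From other lists up to 3 called genes per direction are named. Genes chosen after their values were seen are Krt5, Krt14, Krt17, Krt18, Pdgfra, Pdgfrb, Crtap, Itgb1, Tgfb1, Tgfb3 and Ccn2. So are the uncalled members given with array values. Gene lists use the brightest probe set. Alternatives were another normalization (quantile, median, bacterial controls), pseudocounts of 325.5 or a floor of 16.8, no filter or 933, other eBayes settings, arrayWeights (statmod 1.5.0), a muscle covariate and leaving out each array. Tables and figures used Python 3.11.15 with numpy 2.4.6, pandas 2.3.3 and matplotlib 3.10.9. The number of arrays limits precision.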

Additional observations from a re-analysis of the deposited data

Results flagged for a closer look

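The second Tnc probe set was too dim for the main fit, yet its signal in LH transgenic glands (384, 416 and 206, mean 335) lay above wild type (129, 128 and 119) on every array. Only the alternative fit without a filter included this probe set. Within the class of other matrix genes, that fit called 4 probe sets higher in total, against 3 in the main fit. The brighter Tnc probe set was tested in the main fit. With 3 arrays per group, no search for a single array far from its group was made.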

How the results depend on the processing

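Against 32 lower and 6 higher matrix probe sets, the counts of probe sets called lower and higher stayed within 1.5 times under quantile normalization, median scaling, other pseudocounts, other filters, eBayes without a trend, robust eBayes and array weights. With the bacterial control scale 53 were lower and 1 higher, 18 and 0 of them among basement membrane genes (9 and 3 as reported) and 25 and 1 among other matrix genes (15 and 3). Over all 7453 tested probe sets 3859 were lower and 140 higher on that scale. With the skeletal muscle covariate 18 matrix probe sets were lower, 3 of them fibrillar (8 as reported) and 8 other matrix. Over all tested probe sets 463 were lower and 385 higher with it, against 805 and 781 without it. Leaving out each array gave 20 to 30 lower and 4 to 6 higher probe sets, with 5 to 8 fibrillar lower, 8 to 10 basement membrane lower, 2 to 3 higher, 7 to 14 other matrix lower and 2 to 3 higher. The lowest counts came without wild type pool 3, where the 20 lower ones were all among the 32. Over all tested probe sets that fit called 507 lower and 434 higher, against 805 and 781 with all 6 arrays. Of the 32, 12 kept their call under every setting run for them, 13 lost it under 1 to 3 settings and 7 under more. Of the 6 that rose 1 kept its call throughout. The dimmer Col1a2 probe set, not called as reported, turned from 0.04 to -0.63 and was called on the bacterial control scale. Apart from array removal, the covariate and that scale, the cause was not tested. No paired analysis was possible because the labels give no replicate number or pairing. With 3 arrays per group and pooled RNA, small differences cannot be told from none.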

Other observations

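Signals that induce matrix genes were examined through a further list of 11 tested genes, of which 2 rose and none fell (probe set median -0.03). The 2 are 18.2% of its tested probe sets, against 10.5% that rose and 10.8% that fell over all tested probe sets. Tgfb2, a TGF-beta ligand, read 801, 1024 and 441 in wild type and 1369, 1535 and 1812 in transgenic glands (log2 1.04, adjusted p 0.0184). Smad4, the shared mediator of TGF-beta and BMP signals, read 3676, 4016 and 3402 against 5789, 5399.5 and 8243 (log2 0.77, adjusted p 0.0117). The groups were apart for both. The ligand genes Tgfb1 and Tgfb3 had differences of -0.03 and 0.66 (adjusted p 0.962 and 0.102), and Ccn2, a matricellular target of TGF-beta, of 0.29 (adjusted p 0.356). In limma no adjusted p of these 3 was under 0.05.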
